A study of Mus musculus with 5 samples.

Results

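The 33 genes described here make cholesterol and fatty acids, sense sterols, or move cholesterol out of cells. They were taken by symbol from the deposited expression table, where all 33 were found among 22815 listed symbols: 17 enzymes of sterol synthesis, 5 genes of sterol sensing and transfer, 6 of fatty acid synthesis and 5 of the liver X receptor (LXR) and efflux arm. Their RNA was read by Smart-seq2, a sequencing method for small amounts of RNA, in 5 libraries of cells washed from the peritoneal cavity of mice 8 weeks old. There were 2 libraries from mice described as Irf8-deficient and given pristane (labelled Irf8KO pristane), 2 from C57BL/6 wild-type (WT) mice given pristane, and 1 from WT mice given phosphate-buffered saline (PBS). Pristane is a hydrocarbon oil that causes lasting sterile inflammation in the peritoneum, and Irf8 is a transcription factor of monocyte and dendritic cell development. No Irf8-deficient library without pristane was analysed here, the sources used here do not give the kind of Irf8 allele, the dose or the time after injection, and nothing says whether replicates were separate animals, so p-values measure only the spread between these libraries.

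Cells keep their cholesterol in balance through a pair of opposing programs. When membrane sterol is low, SREBP-2 (Srebf2) leaves the endoplasmic reticulum, where Insig proteins hold it, and turns on the enzymes of sterol synthesis, while SREBP-1 (Srebf1) drives the enzymes of fatty acid synthesis. When sterol is plentiful, oxysterols and some synthesis intermediates activate the LXR proteins (Nr1h3 and Nr1h2), which turn on the exporters Abca1 and Abcg1, the ubiquitin ligase Mylip, and Srebf1 itself. In macrophages this balance sets how lipid from engulfed cells is stored or exported.

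Promoter sequences are shown for 4 of the members described below whose start sites are in the RefSeq table for GRCm38.p6. A promoter window ran from 250 bases before to 50 bases after the annotated start, and 26 of the 33 members had one. Fdps, Fdft1, Sqle, Scd1, Scd2, Stard4 and Abcg1 had none and were not searched. Capitals mark CCAAT, the box bound by the SREBP partner NF-Y, read on either strand (ATTGG on the other), and TCACNCCAC, a form of the sterol regulatory element (SRE) bound by SREBP, where N is any base. Msmo1 is at chr8:64733529-64733828 on the minus strand, Hmgcs1 at chr13:119690101-119690400 on the plus strand, Sc5d at chr9:42264251-42264550 on the minus strand and Acly at chr11:100527951-100528250 on the minus strand.
Msmo1: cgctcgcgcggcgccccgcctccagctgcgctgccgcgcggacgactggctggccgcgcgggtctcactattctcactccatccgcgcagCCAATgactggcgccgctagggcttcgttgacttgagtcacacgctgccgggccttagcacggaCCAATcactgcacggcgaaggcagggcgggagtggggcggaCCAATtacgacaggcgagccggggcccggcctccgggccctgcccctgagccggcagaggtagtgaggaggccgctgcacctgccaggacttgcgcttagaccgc
Hmgcs1: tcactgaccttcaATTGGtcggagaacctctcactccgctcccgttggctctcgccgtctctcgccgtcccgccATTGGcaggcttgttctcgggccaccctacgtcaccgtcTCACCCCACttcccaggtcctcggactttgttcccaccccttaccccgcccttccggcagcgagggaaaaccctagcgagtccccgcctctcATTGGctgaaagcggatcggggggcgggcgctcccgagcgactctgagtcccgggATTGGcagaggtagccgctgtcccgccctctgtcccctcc
Sc5d: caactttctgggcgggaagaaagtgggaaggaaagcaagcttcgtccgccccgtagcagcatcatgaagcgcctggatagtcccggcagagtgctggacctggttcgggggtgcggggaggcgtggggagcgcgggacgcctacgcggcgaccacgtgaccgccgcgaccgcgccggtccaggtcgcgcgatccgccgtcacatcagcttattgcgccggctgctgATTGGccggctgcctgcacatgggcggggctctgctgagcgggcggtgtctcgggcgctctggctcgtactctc
Acly: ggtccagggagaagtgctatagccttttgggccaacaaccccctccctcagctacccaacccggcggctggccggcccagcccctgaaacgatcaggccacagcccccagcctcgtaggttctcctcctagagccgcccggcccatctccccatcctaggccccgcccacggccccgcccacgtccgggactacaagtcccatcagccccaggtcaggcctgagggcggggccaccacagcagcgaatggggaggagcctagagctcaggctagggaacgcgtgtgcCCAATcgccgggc
The Msmo1 window held 3 CCAAT boxes and no match to the SRE letters, and the Hmgcs1 window held 4 CCAAT boxes and 1 SRE match, which began at base -137 from the start. The Sc5d and Acly windows held 1 CCAAT box each. The windows of Nr1h3 and Acaca, not shown, held no CCAAT box and no match to the SRE letters.

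CCAAT was present for all 14 sterol synthesis enzymes with a window and for 21 of the 26 members with one. At least 1 window of 41.1% of the 27025 annotated genes held it, and some genes had several windows. The SRE letters were found for 1 of 26 members and 1.44% of all genes. The GC box GGGCGG, a binding sequence of Sp1, was found for 20 of 26 members and 13 of the 14 enzymes, against 38.2% of all genes. A direct repeat searched under the name DR4 was found for 0 of 26 members and 0.0518% of all genes. The letters searched set its core bases closer together than in the repeat bound by LXR. These counts therefore say nothing on LXR elements, and the presence of such elements was not tested. All motifs were read on both strands, different motifs overlapped in 0 of the 34 member windows, and a match is a stretch of letters, not a shown binding site.

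Values were read as FPKM, the authors' fragments counted per kilobase of transcript and scaled to a total, so levels of different genes can be set beside each other. The sources used here do not say whether that total was each library's own, and the depth estimates take it to be so. Summed FPKM per library ran from 451694 to 582696. From the steps between the lowest values, depth was estimated at 5090000 and 3300000 assigned fragments in the Irf8KO-labelled libraries, 4080000 and 2880000 in WT pristane and 2300000 in WT PBS, where 1 fragment on 1 kb was worth 0.197 to 0.436 FPKM. Irf8 itself stood at 120.5 and 59.4 FPKM in the Irf8KO-labelled libraries, 63.3 and 48.7 FPKM in WT pristane and 32.4 FPKM in WT PBS. Its RNA was thus not lower under the Irf8KO label. With the kind of allele not given, the RNA level cannot check that label, and directions below are given for libraries as labelled. The libraries also differed in sex-linked RNA. The Y-linked Eif2s3y stood at 23.2 and 25.6 FPKM in the Irf8KO-labelled libraries and 12.9 FPKM in the first WT pristane library. The second WT pristane library and WT PBS listed it at 0. The sex-linked Xist ran the other way, at 43.5 FPKM in WT PBS and 8.81 FPKM in the second WT pristane library. It stood at 0 in the first WT pristane library and at 0.0148 and 0.0145 FPKM in the Irf8KO-labelled libraries. Sex cannot be told apart from group in Irf8KO pristane against WT PBS, and its part in any result was not tested.

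**Figure D1:**
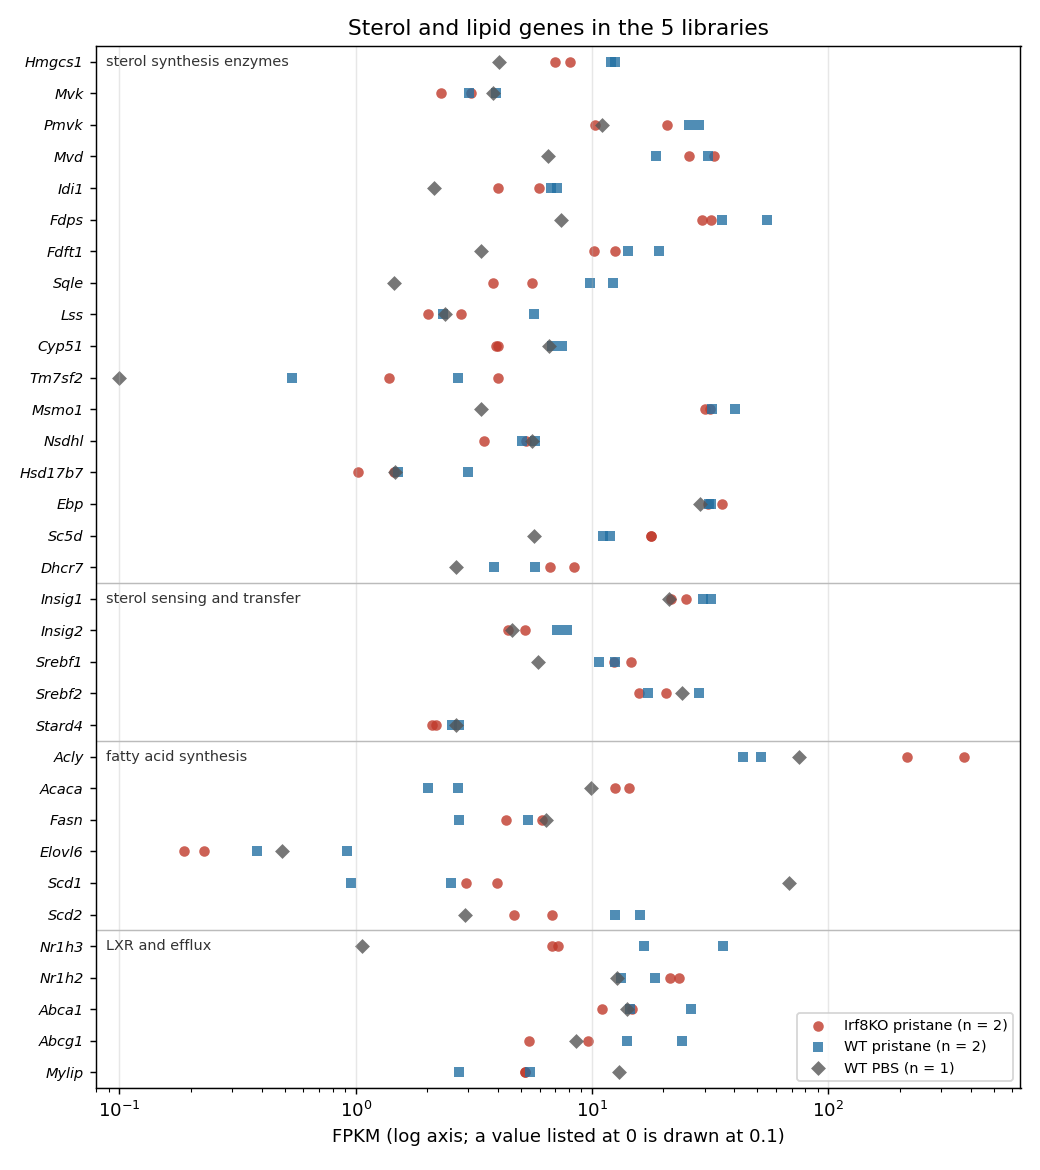
FPKM of each of the 33 members (rows, by role) on a log axis, with 1 point per library: circles for Irf8KO pristane, squares for WT pristane and a diamond for WT PBS. Msmo1, Fdps, Fdft1 and Sqle lie well right of the WT PBS diamond in all 4 pristane libraries, Scd1 lies far left of it, and Acly and Acaca separate the pristane groups.

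The first comparison, WT pristane against WT PBS, asked how the oil changed sterol and lipid genes in the peritoneal cells of normal mice. The sterol synthesis enzymes Hmgcs1, Fdps, Fdft1, Sqle and Msmo1 were higher after pristane, as were the LXR gene Nr1h3 and the desaturase Scd2, while the desaturase Scd1 and the fatty acid enzyme Acaca were lower. By limma 9 of the 32 members tested passed an adjusted p of 0.05, 7 higher and 2 lower, against 10.6% of all 11117 genes tested (5.18% higher and 5.46% lower). Among the 17 sterol synthesis enzymes 5 rose, 0 fell and 12 did not pass, and their median log2 change was 1.22, against -0.07 over all genes tested. Log2 changes are differences of group means of log2(FPKM + 1), which understates the change of low genes, and the spread of the single PBS library was taken to be that of the others. Elovl6, the elongase of long saturated fatty acids, stayed under 1 FPKM in every library and was not tested.

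The mevalonate steps come first. Hmgcs1, which makes the HMG-CoA that feeds the pathway, stood at 12.4 and 12.0 FPKM in WT pristane and 4.04 FPKM in WT PBS (log2 change 1.39 ± 0.23 SE, adjusted p = 0.0440). Its WT pristane values lay close together and about 3 times (3.03) the PBS value. Fdps, which makes farnesyl diphosphate, the branch point to sterols and to protein prenylation, stood at 54.8 and 35.4 FPKM in WT pristane and 7.43 FPKM in WT PBS (log2 change 2.42 ± 0.33, adjusted p = 0.0343). Mvd, the decarboxylase that ends the mevalonate steps, stood at 30.8 and 18.7 FPKM in WT pristane and 6.54 FPKM in WT PBS and missed the threshold (log2 change 1.73 ± 0.38, adjusted p = 0.0667). The isomerase Idi1 (log2 change 1.33, adjusted p = 0.0739) and the kinase Pmvk (1.22, adjusted p = 0.156) had both WT pristane values above the PBS value without passing. Mvk, the first kinase of the pathway, was the exception among these steps: 3.92 and 3.03 FPKM in WT pristane lay on either side of 3.83 FPKM in WT PBS.

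Both enzymes that make and oxidise squalene passed. Fdft1, squalene synthase and the first step committed to sterols, stood at 19.3 and 14.3 FPKM in WT pristane and 3.39 FPKM in WT PBS (log2 change 2.00 ± 0.29, adjusted p = 0.0378). Sqle, squalene epoxidase and a rate-controlling enzyme, stood at 9.79 and 12.3 FPKM in WT pristane and 1.45 FPKM in WT PBS (log2 change 2.29 ± 0.33, adjusted p = 0.0360). Both WT pristane libraries lay several times above the PBS library for each.

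After the ring is closed, most enzymes did not differ past the threshold and 1 stood out. Msmo1, the C4-methylsterol oxidase, had the largest log2 change of the enzymes: 40.1 and 32.3 FPKM in WT pristane and 3.40 FPKM in WT PBS (3.07 ± 0.23 SE, adjusted p = 0.0247), a ratio of means of 10.7. Sc5d, the C5 desaturase, stood at 11.2 and 11.9 FPKM in WT pristane and 5.70 FPKM in WT PBS (log2 change 0.90 ± 0.20, adjusted p = 0.0678). Ebp, the sterol isomerase, was the most even of the abundant members, with 31.9 and 31.4 FPKM in WT pristane and 28.5 FPKM in WT PBS (log2 change 0.14 ± 0.19, adjusted p = 0.632). It stood at 31.1 and 35.3 FPKM in the Irf8KO-labelled libraries. Lanosterol synthase Lss (log2 change 0.48), the lanosterol demethylase Cyp51 (0.09), Nsdhl (-0.04) and Hsd17b7 (0.36), which with Msmo1 remove the C4 methyl groups, and the last reductase Dhcr7 (0.64) had adjusted p-values from 0.259 to 0.940. Tm7sf2, a C14 reductase, was listed at 0 in WT PBS and at 2.72 and 0.540 FPKM in WT pristane, so no fold is given.

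Of the genes that sense and carry sterols, 0 of 5 passed by limma, with 1 at an unadjusted p under 0.05. Insig1, which retains SREBP and is itself an SREBP target, stood at 32.0 and 29.6 FPKM in WT pristane and 21.2 FPKM in WT PBS (log2 change 0.52 ± 0.20, adjusted p = 0.173). Srebf1 stood at 10.7 and 12.5 FPKM in WT pristane and 5.90 FPKM in WT PBS (log2 change 0.87 ± 0.24, adjusted p = 0.0969). Both genes had their WT pristane values above the PBS value. Srebf2, which encodes the main regulator of the sterol enzymes, stood at 28.4 and 17.3 FPKM in WT pristane, on either side of 24.0 FPKM in WT PBS (95% interval of the log2 change -1.17 to 0.95). Insig2, the other retention protein, stood at 7.12 and 7.83 FPKM in WT pristane and 4.58 FPKM in WT PBS (log2 change 0.60, adjusted p = 0.183), and the sterol carrier Stard4 lay at 2.74 and 2.56 FPKM in WT pristane and 2.65 FPKM in WT PBS.

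Fatty acid synthesis genes went in different directions. Scd1, the stearoyl-CoA desaturase that makes oleic acid and a classic LXR and SREBP-1 target, stood at 2.53 and 0.958 FPKM in WT pristane and 68.3 FPKM in WT PBS (log2 change -4.72 ± 0.46 SE, adjusted p = 0.0267). Scd2, a second desaturase of the same family, stood at 12.6 and 16.01 FPKM in WT pristane and 2.89 FPKM in WT PBS (1.96 ± 0.32, adjusted p = 0.0442, and 0.0514 with a pseudocount of 0.1). The desaturase pair therefore had the opposite order in WT pristane and in WT PBS. Scd family sequences are similar, and the sources used here do not give how shared fragments were split between them. Acaca, acetyl-CoA carboxylase, which makes the malonyl-CoA used by Fasn, stood at 2.71 and 2.02 FPKM in WT pristane and 9.85 FPKM in WT PBS (-1.70 ± 0.27, adjusted p = 0.0418). Acly, which makes cytosolic acetyl-CoA from citrate for both sterols and fatty acids, stood at 51.9 and 43.7 FPKM in WT pristane and 74.8 FPKM in WT PBS (-0.64 ± 0.40, adjusted p = 0.326), and the synthase Fasn at 5.37 and 2.73 FPKM in WT pristane and 6.41 FPKM in WT PBS. Values of both lay below the PBS value without passing.

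In the LXR arm, Nr1h3, which encodes LXR alpha, had the largest positive log2 change of the members. Nr1h3 stood at 35.8 and 16.6 FPKM in WT pristane and 1.06 FPKM in WT PBS (log2 change 3.63 ± 0.51 SE, adjusted p = 0.0351). Nr1h2, which encodes the more widely expressed LXR beta, stood at 18.5 and 13.3 FPKM in WT pristane and 12.8 FPKM in WT PBS (0.28 ± 0.28, adjusted p = 0.518). The order of the receptor pair therefore differed between WT pristane, where Nr1h3 was the higher, and WT PBS, where Nr1h2 was. The exporters did not pass: Abca1, which loads cholesterol onto apolipoprotein A-I, stood at 26.2 and 14.5 FPKM in WT pristane and 14.1 FPKM in WT PBS, and Abcg1, which loads it onto HDL, at 14.1 and 24.0 FPKM in WT pristane and 8.52 FPKM in WT PBS (adjusted p = 0.512 for Abca1 and 0.228 for Abcg1). Mylip, a ubiquitin ligase and LXR target, stood at 2.74 and 5.47 FPKM in WT pristane and 12.9 FPKM in WT PBS (-1.503 ± 0.41, adjusted p = 0.0936), below the PBS value in both libraries.

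**Figure D2:**
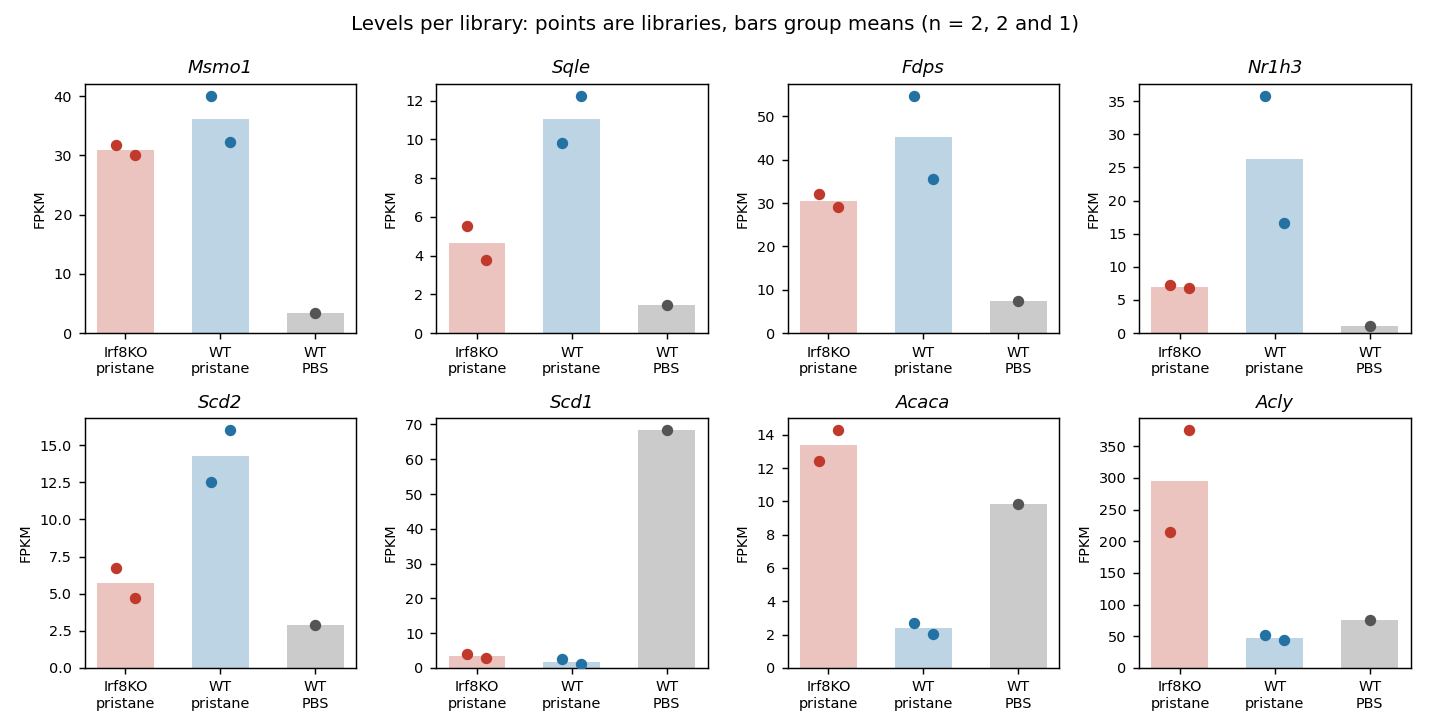
FPKM (linear axes from 0) of 8 members in Irf8KO pristane (n = 2), WT pristane (n = 2) and WT PBS (n = 1), with points for libraries and bars for group means. Msmo1, Sqle, Fdps, Nr1h3 and Scd2 are lowest in WT PBS, Scd1 is highest there, and Acaca and Acly are lowest in WT pristane.

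A further 33 genes of the same pathways were read beside the members, 28 of them tested, and 4 rose and 1 fell past the threshold after pristane in WT. Among those that rose, Soat1, which esterifies cholesterol for storage, stood at 37.3 and 42.3 FPKM in WT pristane and 13.7 FPKM in WT PBS (log2 change 1.47, adjusted p = 0.0338), and Npc2, which hands lysosomal cholesterol on, at 251.0 and 281.3 FPKM in WT pristane and 97.5 FPKM in WT PBS (1.44, adjusted p = 0.0420). The one that fell was the elongase Elovl5, at 19.2 and 19.5 FPKM in WT pristane and 42.4 FPKM in WT PBS (-1.09, adjusted p = 0.0438). Of the most abundant genes of this list, Apoe, which encodes apolipoprotein E, stood at 3125 and 2566 FPKM in WT pristane and 6515 FPKM in WT PBS. The lysosomal lipase Lipa stood at 150.2 and 76.5 FPKM in WT pristane and 33.99 FPKM in WT PBS. Neither Apoe nor Lipa passed.

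The cells recovered also differed, and in bulk RNA fewer cells of a type cannot be told apart from less RNA per cell. Of 8 resident large peritoneal macrophage markers 6 fell past the threshold in WT pristane, and their summed level was 114.6 and 146.3 FPKM there and 1965 FPKM in WT PBS. All 6 B cell markers fell (sums of 52.7 and 13.9 FPKM in WT pristane and 3107 FPKM in WT PBS), and 7 of 8 neutrophil markers rose (sums of 16495 and 14507 FPKM in WT pristane and 152.4 FPKM in WT PBS), with Il1r2 and Stfa2l1 listed at 0 in WT PBS. Of 6 lipid-associated macrophage markers 4 rose (sums of 7481 and 6814 FPKM in WT pristane and 426.8 FPKM in WT PBS), and of 6 inflammatory monocyte markers 2 rose (sums of 355.6 and 1133 FPKM in WT pristane and 70.5 FPKM in WT PBS). Of 5 mast cell markers 4 fell (sums of 4.36 and 2.26 FPKM in WT pristane and 315.2 FPKM in WT PBS), with Mcpt4 listed at 0 in all 4 pristane libraries. The part of these shifts in the sterol and lipid values was not tested. The calls also depended on the filter. With no filter on low genes 3 of the 9 calls remained, those of Hmgcs1, Msmo1 and Scd1, and the other 6 had adjusted p-values from 0.0512 to 0.0609. When any 1 of the 4 pristane libraries was dropped, 0 genes passed by limma in each comparison, so that fit cannot tell which member calls rest on a library. With a pristane library dropped, the log2 change of WT pristane against WT PBS was 2.92 to 3.22 for Msmo1 and -5.15 to -4.30 for Scd1. With all libraries 14 of 32 members had an unadjusted limma p under 0.05 in that comparison, against 33.8% of all genes tested.

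The second comparison, Irf8KO pristane against WT pristane, asked which of these genes differed by genotype label under the same treatment. No member passed the threshold here, and only 3 genes of all 11117 tested did (0.027%). At an unadjusted p under 0.05 there were 9 of 32 members, 3 with positive and 6 with negative changes, against 20.6% of all genes tested (10.5% positive and 10.1% negative). The members at that level were Acaca, Acly and Sc5d with positive changes and Scd2, Sqle, Nr1h3, Cyp51, Hmgcs1 and Abcg1 with negative ones. In 21 of 32 members the libraries of the groups did not overlap, 6 with both Irf8KO-labelled libraries above and 15 with both below both WT pristane libraries. Over all genes tested 53.2% did not overlap, 26.1% above and 27.1% below.

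Acly and Acaca had the largest differences of the members. Acly stood at 215.3 and 375.4 FPKM in the Irf8KO-labelled libraries and 51.9 and 43.7 FPKM in WT pristane (log2 change 2.55 ± 0.33 SE, adjusted p = 0.0815, 95% interval 1.65 to 3.46). Acaca stood at 12.5 and 14.3 FPKM in the Irf8KO-labelled libraries and 2.71 and 2.02 FPKM in WT pristane (2.10 ± 0.22, adjusted p = 0.0612, 95% interval 1.49 to 2.71). For both genes every Irf8KO-labelled library lay more than 4 times above either WT pristane library. The call turned on which genes and groups were fitted: with genes of at least 5 FPKM on average the adjusted p was 0.0184 for Acaca and 0.0209 for Acly, and with the 4 pristane libraries alone it was 0.0107 and 0.0126. Without 1 library, where no gene passed, the log2 change was 1.95 to 2.25 for Acaca and 2.15 to 2.95 for Acly. Fasn, the next enzyme in line, did not follow them: 4.30 and 6.16 FPKM in the Irf8KO-labelled libraries overlapped 5.37 and 2.73 FPKM in WT pristane (0.34 ± 0.37, adjusted p = 0.638). Beside the members, the elongase Elovl5 stood at 45.7 and 48.0 FPKM in the Irf8KO-labelled libraries and 19.2 and 19.5 FPKM in WT pristane (1.23 ± 0.15, adjusted p = 0.0716).

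The desaturases lay on opposite sides of WT pristane. Scd2 stood at 6.74 and 4.68 FPKM in the Irf8KO-labelled libraries and 12.6 and 16.01 FPKM in WT pristane (-1.20 ± 0.26, adjusted p = 0.143). Scd1 stood at 3.95 and 2.94 FPKM in the Irf8KO-labelled libraries and 2.53 and 0.958 FPKM in WT pristane (0.75 ± 0.37, adjusted p = 0.348). Elovl6 was read at 0.188 and 0.227 FPKM in the Irf8KO-labelled libraries and 0.922 and 0.384 FPKM in WT pristane, levels of few fragments at this depth.

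The sterol enzymes had a median log2 change of -0.42, against 0.00 over all genes tested, with changes from -1.10 for Sqle to 0.58 for Sc5d. By limma 0 of 17 passed the threshold, and 4 had an unadjusted p under 0.05, against 20.6% of all genes tested. Both libraries labelled Irf8KO lay below both WT pristane libraries for 9 enzymes, above for 2 and neither for 6. Over all genes tested 27.1% lay below and 26.1% above. Sqle stood at 5.54 and 3.79 FPKM in the Irf8KO-labelled libraries and 9.79 and 12.3 FPKM in WT pristane (-1.10 ± 0.27, adjusted p = 0.160), and Hmgcs1 at 6.97 and 8.06 FPKM in the Irf8KO-labelled libraries and 12.4 and 12.0 FPKM in WT pristane (-0.64 ± 0.19, adjusted p = 0.192). Cyp51 stood at 3.99 and 3.93 FPKM in the Irf8KO-labelled libraries and 6.75 and 7.44 FPKM in WT pristane (-0.71 ± 0.19, adjusted p = 0.177). The groups did not overlap for any of these 3 genes. The enzymes above WT pristane were both late ones: Sc5d at 17.8 FPKM in both Irf8KO-labelled libraries and 11.2 and 11.9 FPKM in WT pristane (0.58 ± 0.16, adjusted p = 0.186), and Dhcr7 at 6.67 and 8.40 FPKM in the Irf8KO-labelled libraries and 3.84 and 5.71 FPKM in WT pristane (0.57 ± 0.27, adjusted p = 0.331). Without Irf8KO pristane replicate 2 the enzymes' median was -0.18, and without WT pristane replicate 1 it was -0.21.

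**Figure D3:**
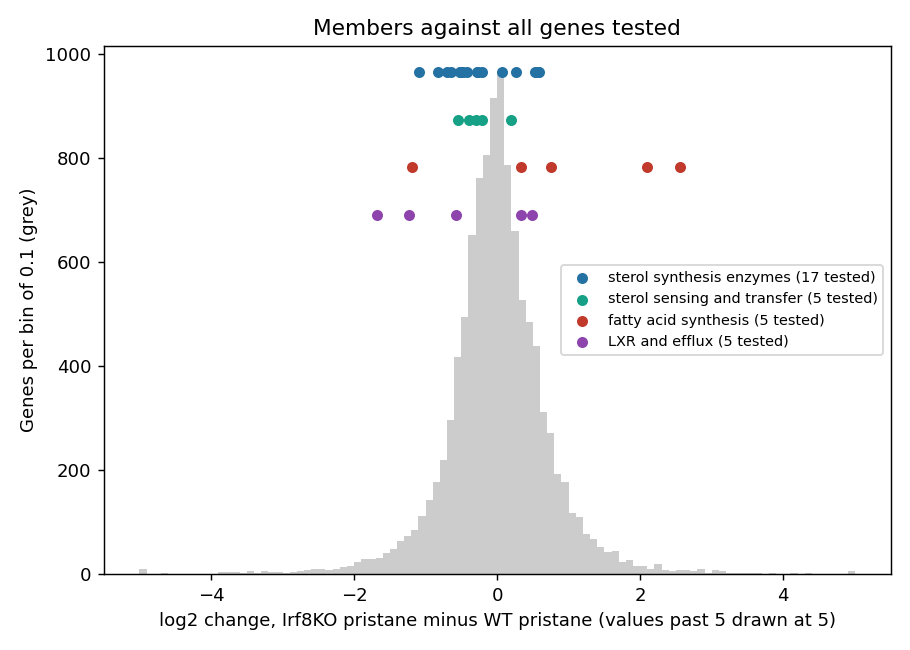
Histogram of the log2 change of Irf8KO pristane minus WT pristane over all 11117 genes tested (grey, bins of 0.1), with the 32 tested members as coloured points by role, placed in rows for legibility. Most sterol enzymes lie left of 0, and Acly and Acaca lie out at 2.55 and 2.10.

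Among the sensing genes Insig1 and Insig2 had both Irf8KO-labelled libraries below WT pristane: Insig1 at 25.0 and 21.6 FPKM in the Irf8KO-labelled libraries and 32.0 and 29.6 FPKM in WT pristane (adjusted p = 0.296), and Insig2 at 5.22 and 4.42 FPKM in the Irf8KO-labelled libraries and 7.12 and 7.83 FPKM in WT pristane (adjusted p = 0.250). Stard4 was also below in both, at 2.19 and 2.11 FPKM in the Irf8KO-labelled libraries and 2.74 and 2.56 FPKM in WT pristane. Srebf1, at 12.3 and 14.6 FPKM in the Irf8KO-labelled libraries, and Srebf2, at 20.5 and 15.8 FPKM there, overlapped their WT pristane values.

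Nr1h3 stood at 7.20 and 6.74 FPKM in the Irf8KO-labelled libraries and 35.8 and 16.6 FPKM in WT pristane (-1.68 ± 0.42, adjusted p = 0.164, 95% interval -2.83 to -0.52). Abcg1 stood at 5.42 and 9.57 FPKM in the Irf8KO-labelled libraries and 14.1 and 24.0 FPKM in WT pristane (-1.23 ± 0.40, adjusted p = 0.212). Neither gene's groups overlapped, and the WT pristane libraries were far apart. Nr1h2 lay the other way, at 21.4 and 23.2 FPKM in the Irf8KO-labelled libraries and 18.5 and 13.3 FPKM in WT pristane (0.48 ± 0.23, adjusted p = 0.327). Abca1, at 10.97 and 14.8 FPKM in the Irf8KO-labelled libraries, and Mylip, at 5.19 FPKM in both, overlapped their WT pristane values.

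Resident macrophage markers moved with Acly and Acaca: their summed level was 1254 and 1951 FPKM in the Irf8KO-labelled libraries and 114.6 and 146.3 FPKM in WT pristane, with 7 of 8 higher in both libraries, Timd4 the exception, and 0 of 8 past the threshold by limma (7 at an unadjusted p under 0.05). In WT PBS, where that sum was 1965 FPKM, Acaca stood at 9.85 FPKM and Acly at 74.8 FPKM. All 6 inflammatory monocyte markers were, like Nr1h3, lower in both Irf8KO-labelled libraries, and their sum was 75.0 and 36.6 FPKM in the Irf8KO-labelled libraries and 355.6 and 1133 FPKM in WT pristane. Within WT pristane the order was the opposite, since the second library had the higher marker sum and the lower Nr1h3 level. By limma 0 of 6 passed (5 at an unadjusted p under 0.05). Neutrophil markers summed to 42489 and 22270 FPKM in the Irf8KO-labelled libraries and 16495 and 14507 FPKM in WT pristane. Most of that sum was S100a8 and S100a9. Of the 8 neutrophil markers 3 lay above WT pristane in both libraries, 2 below (Il1r2, log2 change -0.95, and Stfa2l1, -0.54) and 3 overlapped. By limma 0 of 8 passed (2 at an unadjusted p under 0.05). B cell markers summed to 230.2 and 117.2 FPKM in the Irf8KO-labelled libraries and 52.7 and 13.9 FPKM in WT pristane, and lipid-associated macrophage markers to 4988 and 4907 FPKM in the Irf8KO-labelled libraries and 7481 and 6814 FPKM in WT pristane. Most of the lipid-associated sum was Spp1. Of these 6 markers 4 lay below WT pristane in both libraries and 2 overlapped, among them Cd9 with a log2 change of 0.72. None of the markers in these 5 lists was at 0 in a pristane library, and the part of these cells in the lipid gene values was not tested.

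The third comparison, Irf8KO pristane against WT PBS, shares its PBS library with the first, so the values are given side by side and agreement between them is not a separate result. By limma 3 of 32 members passed, 2 higher and 1 lower, against 8.54% of all genes tested (3.81% higher and 4.72% lower). Msmo1 stood at 31.7 and 30.1 FPKM in the Irf8KO-labelled libraries and 3.40 FPKM in WT PBS (log2 change 2.86 ± 0.23 SE, adjusted p = 0.0274). Sc5d stood at 17.8 FPKM in both Irf8KO-labelled libraries and 5.70 FPKM in WT PBS (1.49 ± 0.20, adjusted p = 0.0387). Scd1 stood at 3.95 and 2.94 FPKM in the Irf8KO-labelled libraries and 68.3 FPKM in WT PBS (-3.97 ± 0.46, adjusted p = 0.0342). Scd1 was thus the member with the largest fall in both groups of pristane libraries, and its adjusted p was 0.0552 with a pseudocount of 0.1.

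Fdps narrowly missed the threshold, at 32.0 and 29.1 FPKM in the Irf8KO-labelled libraries and 7.43 FPKM in WT PBS (1.90 ± 0.33, adjusted p = 0.0502). Mvd, at 25.7 and 32.9 FPKM in the Irf8KO-labelled libraries and 6.54 FPKM in WT PBS, had an adjusted p of 0.0573, and Fdft1, at 12.5 and 10.2 FPKM in the Irf8KO-labelled libraries and 3.39 FPKM in WT PBS, one of 0.0595. All 3 lay well above the PBS value in both libraries, and with genes of at least 5 FPKM on average their adjusted p-values were 0.0267 for Fdps, 0.0317 for Mvd and 0.0383 for Fdft1. The enzymes' median log2 change was 0.91, against -0.05 over all genes tested. Acly stood at 215.3 and 375.4 FPKM in the Irf8KO-labelled libraries and 74.8 FPKM in WT PBS (1.91 ± 0.40, adjusted p = 0.0648), while Acaca, at 12.5 and 14.3 FPKM in the Irf8KO-labelled libraries, lay close to 9.85 FPKM in WT PBS (0.40 ± 0.27, adjusted p = 0.354).

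**Figure D4:**
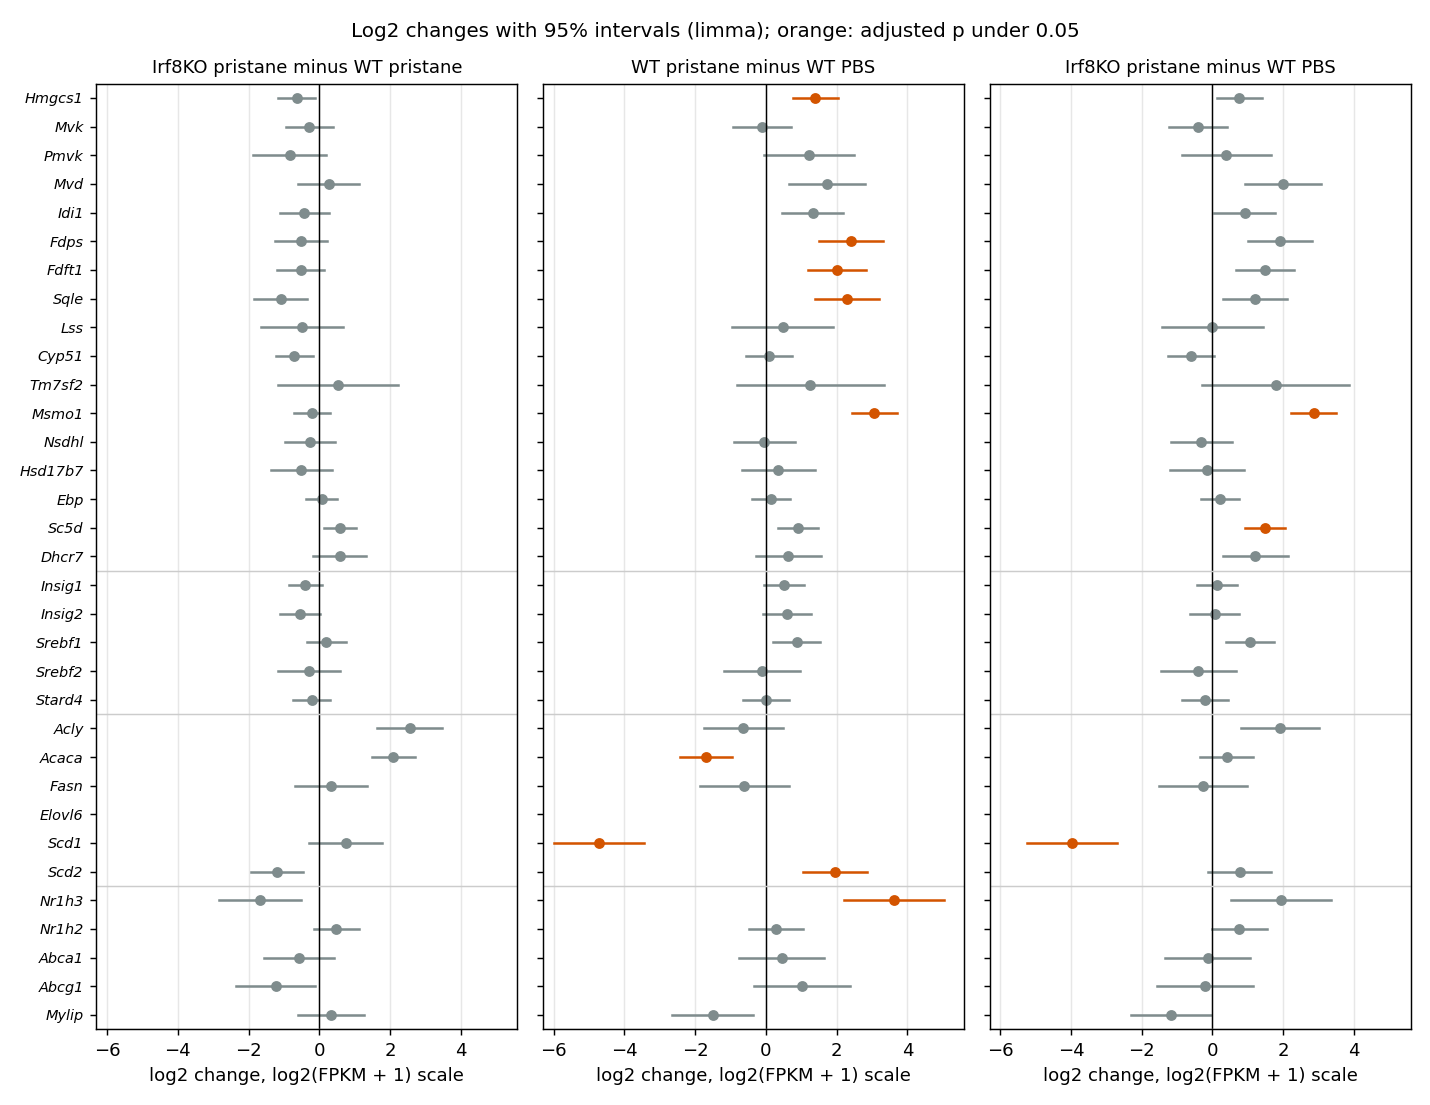
Log2 changes of the 32 tested members with 95% intervals from limma, in 3 panels for Irf8KO pristane minus WT pristane, WT pristane minus WT PBS and Irf8KO pristane minus WT PBS, in units of log2(FPKM + 1). Orange marks an adjusted p under 0.05: 0 members in the left panel, 9 in the middle and 3 on the right.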

How the data were processed

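Per the file headers, the deposited table holds 1 column per library. The authors named it a count table, but its values are not whole numbers and sum to different totals, and they were read as FPKM. Per the submitters' processing notes the tools were BWA, TopHat2 2.0.10, Cufflinks 2.2.1 and Cuffnorm, with no role given; the sources used here do not give the genome build, the annotation or any scaling between libraries. Symbols that had become dates (27 of them) were kept in the fit and never named. An FPKM of 0 may be a failed estimate or a transcript that was not there. In all, 121 genes were at 0 in 1 library or more and at 10 FPKM or more in another, among them the cell type markers Mcpt4, Il1r2 and Stfa2l1.

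A gene was tested where any library reached 1 FPKM (11117 genes). Values were put on the log2(FPKM + 1) scale and 3 group means were estimated together by limma-trend (limma 3.58.1, R 4.3.3), with 2 residual and 1.99 prior degrees of freedom, 2-sided p-values and Benjamini-Hochberg adjustment over all genes tested. The fit was run on simulated data where each gene had the same noise in every library. That run cannot check the spread taken for the PBS library. Depth was estimated from values under 0.3 FPKM of genes with 1 transcript of at least 1000 bp (GENCODE M21 lengths): products of value and length gathered at 1 and 2 times a constant, with 63.0% to 80.5% within 0.15 of a whole number. Members, lists and alternatives were chosen with earlier results of these data known. Values in every library are given for members past the threshold and, per role, for the 4 with the highest mean FPKM and the 3 with the smallest p. Cyp51, Dhcr7, Mvk, Fasn, Stard4, Elovl6 and Tm7sf2 were added after their values were seen, as was Timd4. Some genes of the pathway list are not reported here.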

Additional observations from a re-analysis of the deposited data

Results flagged for a closer look

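For 4 of 32 members tested (12.5%) both libraries labelled Irf8KO lay on one side of the WT PBS library and both WT pristane libraries on the other, against 9.14% of all genes tested. The log2 difference of Irf8KO pristane minus WT pristane was 2.55 for Acly and 2.10 for Acaca (above the PBS value in the libraries labelled Irf8KO, below it in WT pristane). It was -0.71 for Cyp51 and -0.51 for Hsd17b7, which lay the other way. For Hsd17b7 the nearest values differed by little, at 1.45 FPKM in an Irf8KO-labelled library, 1.52 FPKM in a WT pristane library and 1.47 FPKM in WT PBS. The difference between the pristane groups missed the threshold in each case (limma adjusted p = 0.0815, 0.0612, 0.177 and 0.426 in that order), and a single PBS library sets the side.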

How the results depend on the processing

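Signs of called members were kept under every alternative run, while the calls moved. For Irf8KO pristane against WT pristane, the count of all genes past the threshold was 3, and it was 0 with a pseudocount of 0.1 or no filter, 40 without trend, 242 among genes averaging 5 FPKM or more and 431 with the 4 pristane libraries alone. Members past it were 2 (Acaca and Acly) under both of the last settings. With the replicate number as a block among these 4 libraries 799 genes and 5 members passed (Acaca, Acly, Nr1h3, Scd2 and Abcg1). That block fit had only 1 residual degree of freedom. Same-numbered libraries had a correlation of 0.0448 in their deviations over all genes. It rests on a single difference per group, so it cannot tell whether same-numbered libraries shared a batch. For WT pristane against WT PBS 3 of 33 members and 1273 of 15245 genes passed with no filter. For Irf8KO pristane against WT PBS 7 of 26 members and 933 of 5894 genes passed among genes averaging 5 FPKM or more. Without trend 3 of 32 members and 623 of 11117 genes passed in that comparison. Leaving out 1 pristane library at a time left a pristane group with 1 library and the fit with 1 residual degree of freedom. Counts of calls from those fits say nothing on which calls rest on a library. The enzymes' median then ran from -0.55 to -0.18 for Irf8KO against WT pristane, from 0.95 to 1.29 for WT pristane against PBS and from 0.85 to 1.06 for Irf8KO pristane against PBS. That last median was 1.15 with a pseudocount of 0.1, 1.19 among genes averaging 5 FPKM or more and 1.14 with quantile normalization. The share of higher calls after pristane in WT was 48.7% of 1183, 29.2% with no filter, 60.6% with a pseudocount of 0.1 and 68.7% among genes averaging 5 FPKM or more. The average of 5 FPKM runs over all 5 libraries, 4 of them pristane, so that filter keeps genes high after pristane more readily. Its part in that share, and the cause of the other shifts, were not tested. At most 2 libraries a group, 1 PBS library and estimated depths of 2300000 to 5090000 fragments limit what could be called.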
